A study of Mus musculus with 4 samples.

Results

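Complement is a set of soluble proteins that tag targets and call in phagocytes, and tumor macrophages are a known local source of several of them. C1q, built from the A, B and C chains encoded by C1qa, C1qb and C1qc, is the recognition unit of the classical pathway. C3 is the central component on which all pathways converge. Factor B (Cfb) supplies the protease of the alternative pathway convertase and properdin (Cfp) stabilises that convertase. C3ar1 and C5ar1 encode the receptors for the small fragments released when C3 and C5 are cut, the anaphylatoxins C3a and C5a. These 8 genes were chosen by name from the 19059 genes of the count matrices, with earlier results of these data known. Counts of members called below therefore describe these genes and do not test for an excess over all genes. The level of the 8 genes was followed across cell classes and across the 4 libraries. No cell was chosen by its C1q content.

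The libraries were made from MC38 colon adenocarcinoma tumors grown under the skin of B-hCTLA-4 mice, which carry a humanized CTLA-4 gene on the C57BL/6 strain. Each mouse was given 500000 tumor cells, treatment began at a tumor volume near 100 mm3, and viable CD45+ cells (CD45 marks leukocytes) were sorted on day 8 after 3 treatments. For each group the tumors of 11 mice were pooled into 1 library, and none has a replicate. All 4 groups share the host and the tumor line and are labelled as 1 batch. The isotype control group was given human IgG1 at 10 mg/kg. The combination group was given the anti-human CTLA-4 antibody ipilimumab (human IgG1, 10 mg/kg) together with the anti-mouse FcgRII antibody AT130-2 (mIgG1-N297A, 20 mg/kg), which blocks the inhibitory mouse Fc receptor. For the 2 single-antibody libraries the sample title names one of these antibodies and the treatment field names the other. They are called single antibody A (titled anti-human CTLA-4) and single antibody B (titled anti-mouse FcgRII), and nothing below rests on which antibody either received. Neither age nor sex was given for the B-hCTLA-4 mice in the sources used here.

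All 8 genes lie on the minus strand of the mouse genome (GRCm38). The C1q chains form one cluster on chromosome 4 of 18675 bases that holds 0 other protein-coding genes: C1qb (ENSMUSG00000036905, chr4:136880129-136886187), C1qc (ENSMUSG00000036896, chr4:136889804-136893065) and C1qa (ENSMUSG00000036887, chr4:136895917-136898803), each with 3 exons. C3 (ENSMUSG00000024164, chr17:57203970-57228136) has 41 exons. Cfb (ENSMUSG00000090231, chr17:34856374-34862518) lies 85 bases from C2, its homologue of the classical pathway. Cfp (ENSMUSG00000001128) lies at chrX:20925454-20931555, C3ar1 (ENSMUSG00000040552) at chr6:122847138-122856161 and C5ar1 (ENSMUSG00000049130) at chr7:16246743-16259540. Promoters are shown for C1qb and C1qc, because the chains moved together in macrophages, and for C3, the member that differed most between libraries. The sequences come from RefSeq (GRCm38.p6), which held an entry for 6 of the 8 genes. They read 5′ to 3′ and stop just before the start of transcription, except that the C1qc sequence is the part of the 250 bases before the RefSeq start that lies outside the annotated gene.
C1qb, chr4:136886201-136886450: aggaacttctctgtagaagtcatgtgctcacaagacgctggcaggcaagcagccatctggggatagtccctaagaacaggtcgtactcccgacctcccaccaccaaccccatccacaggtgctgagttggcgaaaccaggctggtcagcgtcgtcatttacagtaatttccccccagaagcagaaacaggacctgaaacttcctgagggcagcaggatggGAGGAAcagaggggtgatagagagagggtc
C1qc, chr4:136893066-136893164: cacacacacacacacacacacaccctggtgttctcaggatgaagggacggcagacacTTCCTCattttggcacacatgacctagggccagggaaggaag
C3, chr17:57228137-57228386: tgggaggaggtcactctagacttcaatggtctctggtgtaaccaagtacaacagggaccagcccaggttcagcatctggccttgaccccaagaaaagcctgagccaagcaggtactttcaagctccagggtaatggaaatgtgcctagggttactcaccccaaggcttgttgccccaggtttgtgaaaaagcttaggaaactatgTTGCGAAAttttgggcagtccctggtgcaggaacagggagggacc
Capitals mark the letters that matched one of 5 short motifs searched on both strands. In C1qb and C1qc they mark the core of the PU.1 site (GAGGAA, read as TTCCTC on the other strand in C1qc), PU.1 being a factor of the myeloid lineage. In C3 they mark a C/EBP letter pattern (TTGCNNAA). The PU.1 letters were found in 23.3% of all 32851 promoters of that length and the C/EBP letters in 9.56%, so a match is a description of the sequence only. The STAT pattern (TTCNNNGAA, 7.02% of promoters) matched in none of the 6 members. The interferon response pattern (GAAANNGAA, 7.13%) matched in C5ar1 only and the NF-kB pattern (GGGNNTTTC, 3.72%) in C3ar1 only. No matches overlapped each other.

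The libraries held 6097 to 8173 cell barcodes with a median of 14836 to 19115 unique molecular identifiers (UMIs, each standing for 1 captured probe pair) per barcode, and 26785 cells were kept. No full barcode was shared between libraries, but 712 to 1148 per pair of libraries were alike in their first bases. The article states that the samples were loaded as a pool. Cells were clustered without the 8 genes, and clusters were named from marker lists that hold none of them, so each class below is a "like" class resting on its markers. In the order isotype control, single antibody A, single antibody B and combination, which all series of 4 values below follow, the macrophage class held 4175, 3517, 4125 and 3939 cells, the monocyte class 953, 633, 397 and 568, the dendritic class 220, 138, 92 and 119, the neutrophil class 107, 93, 42 and 449 and the stromal or tumor class 73, 95, 97 and 77. The clusters were named from these lists, so the marker sums describe the classes and do not test their names. The summed level of the 8 macrophage markers was 5755 to 7178 CPM in macrophages (UMIs of the genes per 1000000 UMIs of the class). In the stromal or tumor class it was 108 to 208 CPM. The neutrophil list stood at 33611 to 72584 CPM in neutrophils against 135 to 324 in macrophages. Monocytes also carried macrophage markers, at sums given with their ratios below. Of the 12 macrophage clusters, 1 was led by immunoglobulin genes next to Cbr2 and Folr2 and 2 by heat shock genes. A further 1466, 545, 610 and 1250 cells were set apart as mixed, nearly all for macrophage and lymphocyte markers together. Among them 51 cells of the neutrophil cluster, 6 of the stromal or tumor cluster and a few mast or basophil cells were set apart on macrophage markers alone. The mixed cells held 37.8%, 13.7%, 16.2% and 32.5% of all C1q UMIs of their libraries, and their values are given at the end.

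C1q was by far highest in macrophages. The summed level of the chains was 13997 CPM in isotype control, 15408 in single antibody A, 14891 in single antibody B and 12977 in the combination. In every library the macrophage level stood above that of every other class, the mixed cells included. Monocytes held 1889, 856, 2149 and 2524 CPM and dendritic cells 1960.2, 1813, 2285 and 3071. T cells, which should lack C1q, held 685, 278, 284 and 583 CPM, or 4.89%, 1.803%, 1.904% and 4.496% of the macrophage level and were taken as the background. The classes were not filtered alike. T cells with at least 1000 CPM of macrophage markers had been set apart as mixed, while monocytes and dendritic cells were not filtered on these markers. When cells were drawn down to 2000 UMIs, 91.1%, 89.9%, 93.6% and 86.6% of macrophages held a C1q UMI. The share was 43.1%, 27.04%, 28.7% and 42.02% in T cells, 33.3%, 24.5%, 27.3% and 37.6% in monocytes, 27.7%, 21.2%, 30.7% and 37.03% in dendritic cells and 40.1%, 30.6%, 27.1% and 40.1% in neutrophils. The undrawn median depth was 3878 to 5112 UMIs in T cells and 8413 to 9907 in monocytes. Monocyte shares lay at or below those of T cells in each library even though the summed monocyte level was the higher. Shares of neutrophils did so in each library except single antibody A, and those of dendritic cells in each library except single antibody B. Drawing down removes more of the free RNA from deeper cells than from shallow ones. The shares therefore cannot decide how much C1q in monocytes or dendritic cells was background. Stromal or tumor cells held 96.7, 296, 75.8 and 229 CPM, above the T cell level only in single antibody A and there by little, with a share of 9.18 to 19.5%. Their median depth was 50342 to 86219 UMIs, far above that of T cells, so neither value places them against background.

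The 3 chains kept nearly the same proportions in macrophages in each library. C1qa gave 45.3 to 45.6% of C1q UMIs, C1qb 38.1 to 38.7% and C1qc 15.8 to 16.6%. The chains are made in equal number in the protein, and these shares of UMIs also depend on how many probes the assay has per gene and how well each one captures, so they are no measure of chain ratios. Over the 44 pairs of a macrophage cluster and a library with at least 50 cells, Pearson's r between C1qa and C1qb was 0.996 and between C1qa and C1qc 0.995. These points share libraries and cells and the values describe them without a test.

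**Figure D1:**
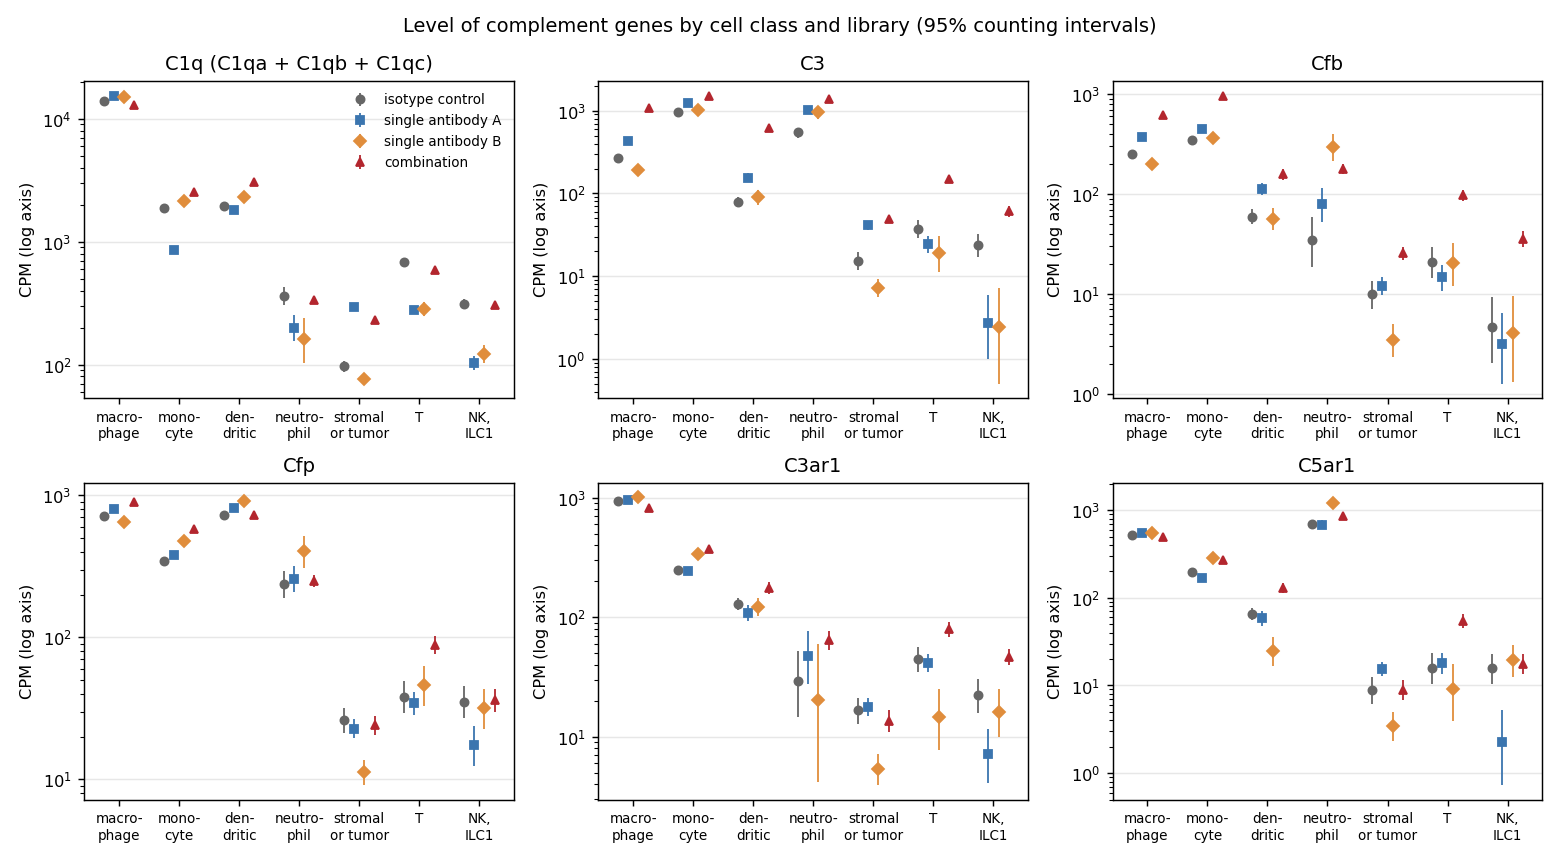
Level of C1q (sum of 3 chains), C3, Cfb, Cfp, C3ar1 and C5ar1 (CPM, log axis) in 7 cell classes, 1 point per library with its 95% Poisson interval, which covers counting error only. C1q stood at 12977 to 15408 CPM in macrophages, C3 was higher in monocytes than in macrophages in each library, and C5ar1 was highest in neutrophils.

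C3 had another distribution. It was higher in monocytes than in macrophages in each of the 4 libraries, at 956, 1244, 1006 and 1500.5 CPM in monocytes against 267, 431, 193 and 1078 in macrophages. The monocyte level was 358%, 289%, 523% and 139% of that in macrophages, so the gap was narrowest in the combination. Neutrophils held 546, 1009, 953 and 1384 CPM and dendritic cells 78.8, 155, 89.3 and 621. At 2000 UMIs per cell a C3 UMI was found in 73.8%, 76.7%, 73.7% and 86.03% of monocytes, in 44.2%, 53.2%, 54.3% and 73.95% of neutrophils and in 28.7%, 37.4%, 22.7% and 65.2% of macrophages. T cells, taken as background, stood at 2.18%, 2.15%, 1.54% and 10.6% and stromal or tumor cells at 5.07%, 3.44%, 1.49% and 6.56%. Cfb was found in macrophages, monocytes, dendritic cells and neutrophils. It stood at 250.2, 372, 201 and 625 CPM in macrophages and 347, 453, 364 and 951 in monocytes. In dendritic cells it stood at 59.5, 114, 56.3 and 158 CPM. In neutrophils it stood at 34.6, 78.7, 297 and 178 CPM, above the macrophage level in single antibody B only. It was at 3.47 to 25.4 CPM in the stromal or tumor class. Within monocytes the Plac8 and Chil3 cluster, genes of classical monocytes, held 678, 758, 579 and 1309.9 CPM of Cfb and the Ace and Adgre4 cluster, genes of nonclassical monocytes, held 76.96, 94.01, 53.98 and 228. C3 differed less between these clusters, at 963, 1459, 981 and 1628 CPM in the former and 949.9, 991, 1043 and 1245 in the latter.

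Properdin and the receptors split the myeloid classes differently again. Cfp was high in macrophages (715, 802, 653 and 906 CPM) and in dendritic cells (723, 813, 915 and 727 CPM). Within dendritic cells it sat in the Cd209a cluster, at 842, 897, 1011 and 869 CPM, and the Ccr7 and Fscn1 cluster of migratory dendritic cells held 94.9, 69.3, 145 and 229 CPM from 12 to 37 cells. C3ar1 was a macrophage gene, at 933, 959, 1006 and 814 CPM against 249, 245, 338 and 373 in monocytes and 20.3 to 64.1 in neutrophils. Dendritic cells held it at 129, 109, 122 and 175 CPM. Outside the myeloid classes above, C3ar1 was found in the mast or basophil class, at 318, 245, 182 and 228 CPM from 30 to 80 cells. C5ar1 was highest in neutrophils in each library, at 689.8, 686, 1216 and 855 CPM, followed by macrophages at 521, 544, 549.5 and 494 and monocytes at 199, 168, 284 and 272. At 2000 UMIs a C5ar1 UMI was found in 66.5%, 66.9%, 81.1% and 69.5% of neutrophils and in 56.1%, 57.9%, 59.8% and 54.8% of macrophages, against 2.41%, 1.60%, 2.45% and 4.66% of T cells. Neutrophils thus held the most C5ar1 of these classes and less C3ar1 than macrophages or monocytes.

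In macrophages the combination library differed from isotype control in C3 and Cfb far more than in C1q. C3 stood at 267 CPM in isotype control, 431 in single antibody A, 193 in single antibody B and 1078 in the combination. The combination was the highest and single antibody B the lowest. Divided by the isotype control level this gave a ratio of 4.03 (95% interval 3.97 to 4.09), where the interval is exact for the UMI counts and covers counting error only, since each group is 1 library and no test between treatments can be made. C3 in the combination was 2.502 times its level in single antibody A and 5.598 times that in single antibody B. For the combination over isotype control, only 24 of the 8658 genes at 10 CPM or more in either library had a larger ratio than C3. Cfb ran the same way, at 250.2, 372, 201 and 625 CPM, a ratio of 2.496 (95% interval 2.46 to 2.54). For Cfb 91 genes had a larger ratio. The ratio of single antibody A to isotype control was 1.61 (95% interval 1.58 to 1.64) for C3 and 1.49 (95% interval 1.46 to 1.51) for Cfb, and that of single antibody B was 0.721 (95% interval 0.706 to 0.735) and 0.805 (95% interval 0.789 to 0.821). The product of both single ratios was 1.16 for C3 and 1.196 for Cfb, and the combination ratio was 3.47 and 2.09 times this product. It is a description without a test, and doses of the single-antibody libraries are not given here.

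C1q moved little. At 13997, 15408, 14891 and 12977 CPM C1q gave a ratio of 0.927 (95% interval 0.925 to 0.9295) for the combination over isotype control, and the ratios were 0.921 for C1qa, 0.9198 for C1qb and 0.962 for C1qc. The median gene of macrophages had a log2 ratio of -0.11 in this comparison, and the log2 ratio of C1q was -0.11: relative to all genes C1q stood at the middle. Scaling by size factors (the median of ratios over genes, in place of total UMIs) raised every macrophage ratio of this comparison by 0.11 on the log2 scale, and put C1q at 1.004 and C1qc at 1.04, on the other side of 1. Both single antibodies stood slightly above isotype control, by 1.101 and 1.06 times, and the combination stood at 0.842 and 0.871 times the level of single antibody A and B. In single antibody A over isotype control 672 of 8602 genes had a larger ratio than C1qa, and in single antibody B 1359 of 8612. For the combination over single antibody A 7524 of 8609 genes had a larger ratio than C1qa, and over single antibody B 6148 of 8648. Cfp was higher in the combination, at 715, 802, 653 and 906 CPM, a ratio of 1.27 (95% interval 1.25 to 1.28). C3ar1 was lower, at 933, 959, 1006 and 814 CPM and a ratio of 0.872 (95% interval 0.863 to 0.881). C5ar1 had a ratio of 0.949 (95% interval 0.937 to 0.962), which lay above the median gene and became 1.03 with size factors, while C3ar1 stayed below 1 at 0.944.

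With a gene called where 2 libraries differed at least 1.5-fold and one of them reached 10 CPM, 2 of 8 members, C3 and Cfb, were called higher with the combination than with isotype control, beside 3.95% of all genes tested, and 0 of 8 were called lower, beside 3.15%. Of all genes called in this comparison 55.6% were higher, and 71.96% with size factors. Against single antibody A the same 2 members were called higher, beside 2.88% of all genes, and against single antibody B as well, beside 5.02%. None was called lower in either comparison, beside 2.08% and 3.83%. Single antibody A against isotype control called C3 alone higher, beside 0.581% of all genes, and none lower, beside 0.244%. Single antibody B called none of the members in either direction, beside 0.581% higher and 0.859% lower.

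**Figure D2:**
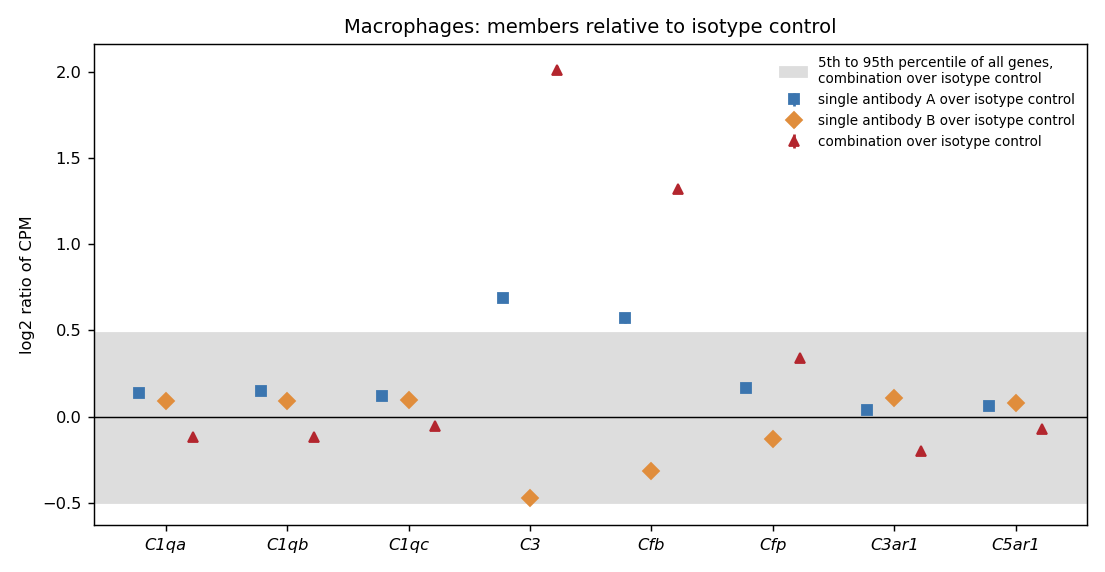
Log2 ratio of each member's macrophage level to isotype control for single antibody A, single antibody B and the combination; the 95% counting intervals are narrower than the symbols, and the grey band spans the 5th to 95th percentile of all genes for the combination. C3 and Cfb in the combination lay above the band, at 2.01 and 1.32, and the C1q chains and receptors lay inside it.

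The difference in C3 and Cfb was found throughout the macrophages. The combination library was higher than isotype control beyond counting error in 10 of the 10 macrophage clusters with at least 50 cells in both, for C3 by 1.80 to 5.64 times and for Cfb by 1.55 to 3.64 times. Of the C3 difference of 811 CPM, 92.5% lay within clusters and the rest in their shares. For Cfb the part within clusters was 91.4%. Single antibody A was higher than isotype control in 10 of 11 clusters for both genes, and single antibody B was lower in 10 of 11 for C3 and in 8 of 11 for Cfb. The lowest C3 ratio was that of the cluster led by Mmp12, Clmp, Cxcl3 and Nos2, where C3 was already high in isotype control. There it stood at 1165, 1869, 811 and 2097 CPM, a ratio of 1.80 (1.73 to 1.88), while the cluster's cells numbered 106, 151, 119 and 343. In the cluster led by Cbr2 and Folr2, genes of resident-like macrophages, and immunoglobulin genes, C3 stood at 143, 206, 85.3 and 754 CPM, a ratio of 5.26 (5.05 to 5.48). In the cluster led by the interferon-induced Cmpk2, Ifit3 and Rsad2, Cfb stood at 722, 808, 575 and 1223 CPM and was the highest of any cluster in isotype control. The summed level of the Nos2-high marker list over all macrophages also differed between the libraries, at 184, 359, 125 and 1158 CPM, with all of its measured genes above 0 in each library, and its part in the C3 result was not tested. Without the Nos2-led cluster the C3 ratio was 4.06 and the Cfb ratio 2.39. Between isotype control and the combination the sum of the Nos2-high list rose in every macrophage cluster. It went from 40.5 to 517 CPM in the Cbr2 and Folr2 cluster and from 75.2 to 744 CPM in the Gbp2b and class II cluster. Leaving out the Nos2-led cluster thus did not remove the difference in this list, and its part in the C3 and Cfb differences within clusters was not tested.

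C1q differed between macrophage clusters more than between libraries. In isotype control it ranged from 6272 to 17718 CPM over clusters. The lowest were the cluster led by Thbs1, Spp1, Fn1 and Arg1, at 6272, 5917, 8879 and 4673 CPM, and the Nos2-led cluster, at 6713, 6900.5, 6964 and 5326 CPM. The highest were the cluster of Gbp2b and class II genes, at 17718, 19581, 18169 and 16643 CPM, and the Cbr2 and Folr2 cluster, at 17639, 19241, 17822 and 17285 CPM. By CPM the combination was lower than isotype control beyond counting error in 7 of 10 clusters and higher in 2. The widest gap lay in the cluster led by Ctsk and heat shock genes, at 12585, 13292, 12874 and 8610.1 CPM, a ratio of 0.684 (0.678 to 0.6903). In the Spp1 cluster the ratio was 0.745 (0.733 to 0.757), and in the clusters led by cell division genes it was 1.02 (1.01 to 1.03), 1.06 (1.05 to 1.07) and 1.00 (0.9903 to 1.01). Over the 44 pairs of cluster and library Pearson's r was -0.55 between C1q and C3 and 0.88 between C3 and Cfb, as a description without a test.

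**Figure D3:**
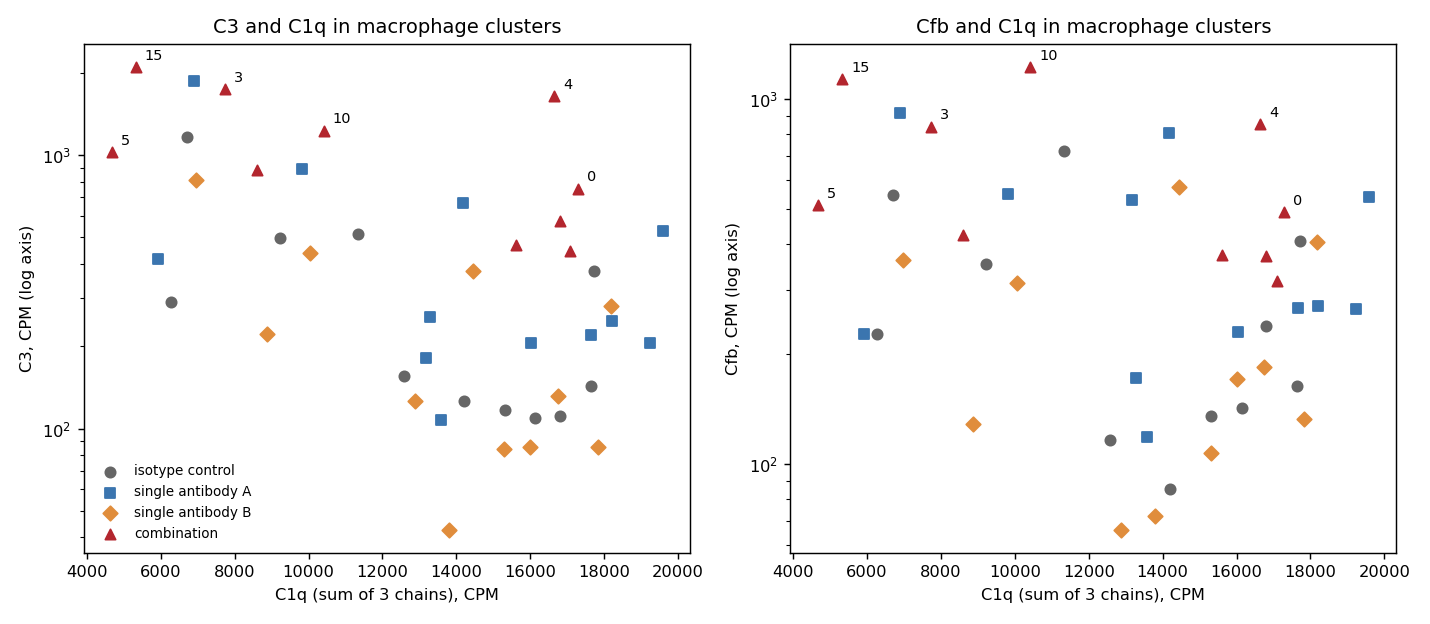
C3 (left) and Cfb (right) against C1q (CPM, log vertical axis) in macrophage clusters, 1 point per cluster and library with at least 50 cells; numbers name clusters of the combination (0 Cbr2 and Folr2, 3 Mgl2 and Ccl17, 4 Gbp2b and class II, 5 Spp1 and Arg1, 10 Ifit3 and Rsad2, 15 Nos2). The combination points lie above those of the same clusters in isotype control, and clusters 5 and 15 held the least C1q.

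Over single macrophages C1q was spread more widely in the combination. The 25th percentile of C1q was 6837, 7592, 10321 and 3059.6 UMIs per 1000000 UMIs of the cell, the median 13969, 15726, 15209 and 11897 and the 95th percentile 23243, 24068, 22338 and 22456. The 25th percentile in the combination was thus the lowest of the 4 libraries while the 95th percentile was alike. The 5th percentile was 55.8, 0, 104 and 0, so there the combination was level with single antibody A. C3 had a median of 74.4, 151, 43.3 and 730.5 and a 95th percentile of 1379, 2032, 1023 and 3957 UMIs on the same scale. At 2000 UMIs per cell the share of macrophages with a Cfb UMI was 28.8%, 38.3%, 24.3% and 52.5%. At this depth 4145, 3494, 4107 and 3906 macrophages were compared for C3 and C1q together, fewer than the class held. Macrophages with a C3 UMI held fewer C1q UMIs than those without in each library: 20.99 against 26.97 per 2000 in isotype control and 19.5 against 26.8 in the combination. They also more often held a Cfb UMI, 43.0% against 23.1% in isotype control and 61.4% against 35.8% in the combination. Cells of 1 library are no replicates, and these values carry no test.

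**Figure D4:**
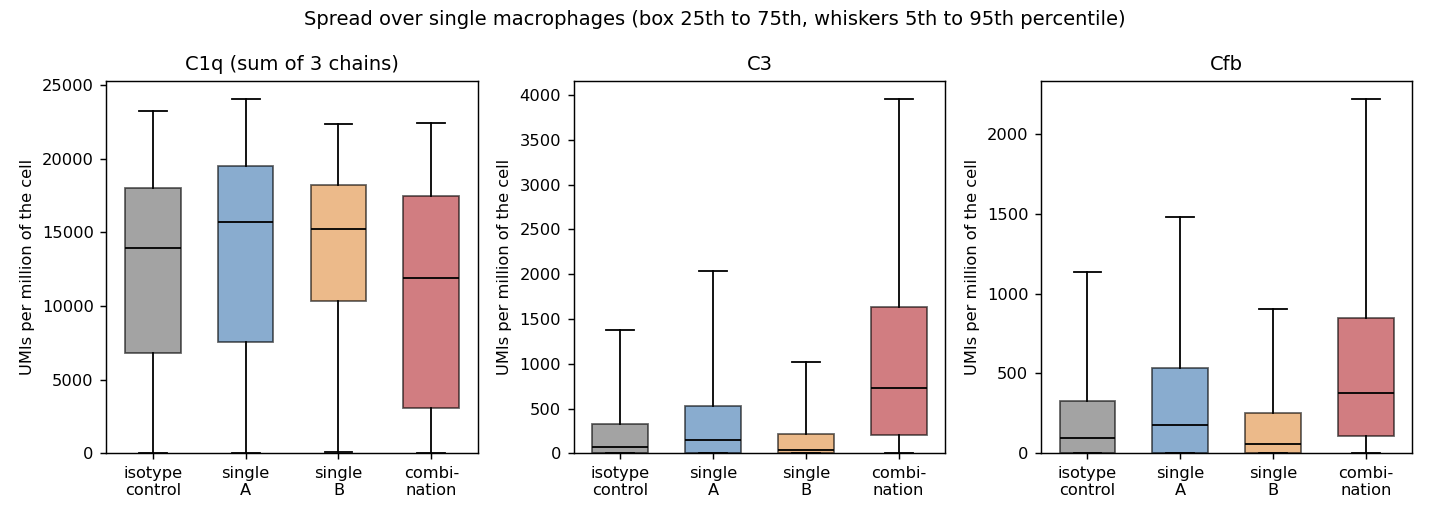
Spread of C1q, C3 and Cfb over single macrophages of each library, in UMIs per 1000000 UMIs of the cell; line, median; box, 25th to 75th percentile; whiskers, 5th to 95th percentile. The C1q box of the combination reached lowest, to 3059.6, and its C3 median was 730.5 against 74.4 in isotype control.

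In monocytes 3 of the 8 members, C3, Cfb and Cfp, were called higher with the combination than with isotype control, beside 5.84% of all genes in that class, and 0 lower, beside 4.89%. With size factors 66.3% of all genes called were higher, against 54.4% by CPM. C3 was 1.57 (95% interval 1.53 to 1.62) times, Cfb 2.74 (95% interval 2.63 to 2.86) times and Cfp 1.65 (95% interval 1.58 to 1.73) times the isotype control level. Cfb was higher in both monocyte clusters. C1q, C3ar1 and C5ar1, which in macrophages stood slightly below isotype control, stood above it in monocytes, at ratios of 1.34 (95% interval 1.31 to 1.37), 1.497 (95% interval 1.41 to 1.58) and 1.36 (95% interval 1.28 to 1.46). The summed macrophage markers of the monocyte class were 3406, 3248, 3489.8 and 3207 CPM and the summed monocyte markers 11609.7, 11692, 11003 and 9816, and the Nos2-high list stood at 198, 366, 243 and 1271. Their part in these ratios was not tested. The monocyte values depended on how the class was drawn. When the libraries were clustered without integration, monocytes were a cluster led by Ace and Adgre4 alone, of 561 isotype control and 162 combination cells, and the ratios there were 0.575 for C1q, 0.778 for C3ar1 and 0.884 for C5ar1, below 1, and 1.28 for C3, 1.29 for Cfb and 1.198 for Cfp, none of them called. The cluster led by the same genes with integration, of 547 and 205 cells, went the other way, from 1656 to 2587 CPM of C1q, from 115 to 195 of C3ar1 and from 106 to 163 of C5ar1. At a resolution of 0.4, where it was the whole class, the ratios were 1.56, 1.69 and 1.54. When each cell was gated on its own UMIs of Csf1r, Adgre1, Flt3 and S100a8, C3 and Cfb stayed called, at 2.13 and 2.28, and C1q stood at 0.6996.

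In dendritic cells 6 of the 8 members were called higher, beside 7.03% of all genes, and 0 lower, beside 13.1%. They were the C1q chains, C3, Cfb and C5ar1. Higher genes were 34.9% of all calls, and 50.6% with size factors. C3 alone stayed called however the class was drawn: without integration C3 stood at 4.19, Cfb at 1.28, C1q at 0.531 and C5ar1 at 0.874, and with the gate C1q stood at 0.961 and C5ar1 at 1.05. C3 was at 78.8, 155, 89.3 and 621 CPM, a ratio of 7.88 (95% interval 6.73 to 9.26), from 220, 138, 92 and 119 cells. The share of dendritic cells with a C3 UMI at 2000 UMIs was 7.01%, 11.4%, 9.18% and 31.3%. In the Cd209a cluster C3 stood at 87.8, 162, 97.4 and 598 CPM and in the Ccr7 cluster at 31.6, 86.6, 24.2 and 703. Cfb had a ratio of 2.65 (95% interval 2.15 to 3.28) and Cfp, at 723, 813, 915 and 727 CPM, one of 1.01 (95% interval 0.932 to 1.08). The summed macrophage markers in this class were 1668, 1583, 1746 and 1771 CPM, and the Nos2-high list 33.5, 30.9, 12.5 and 207.

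Neutrophils gave less certain values, from 107, 93, 42 and 449 cells with a median of 2894 to 3398 UMIs. C3 was at 546, 1009, 953 and 1384 CPM, and all 3 antibody libraries lay above isotype control. The ratio of the combination was 2.54 (95% interval 2.198 to 2.94). C5ar1 had a ratio of 1.24 (95% interval 1.09 to 1.42) and was highest in single antibody B. C3, Cfb and C3ar1 were 3 of 8 members called higher, beside 17.6% of all genes, and 0 lower, beside 24.6%. Calls in this class were thus common for any gene. Cfb went from 34.6 CPM, resting on 13 UMIs, to 178 in neutrophils, and from 21.0 to 97.0 CPM in T cells. C3ar1, from few UMIs, had a ratio of 2.19, and of 0.721 where no cell was set apart as mixed. Its level of 29.3 CPM in isotype control and 64.1 in the combination lay below that of T cells, at 44.5 and 79.6. In single antibody A and B it lay above, at 47.8 against 41.6 and 20.3 against 14.6 CPM. C1q, at background, had a ratio of 0.925 (95% interval 0.767 to 1.12). In the stromal or tumor class the summed C1q level was 96.7, 296, 75.8 and 229 CPM and C3 15.4, 41.1, 7.29 and 48.9 from 73 to 97 cells. T cells, in which complement genes stand for background, went from 37.5 to 148 CPM of C3 between isotype control and the combination, or 14.03%, 5.62%, 9.93% and 13.8% of the macrophage level in the 4 libraries. The part of free RNA in the values of the sparse classes was not tested.

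Of the wider complement system, 59 genes of a list of 60 were measured and 24 reached 10 CPM in macrophages. The list was also chosen with earlier results of these data known, so its counts are a description. In the combination 6 of the 24 were called higher than in isotype control, 2 lower and 16 neither, beside 3.95% and 3.15% of all genes, and the median log2 ratio over the 24 was -0.06 against -0.11 over all genes. The 6 were C3, Cfb, the proteases C1ra and C1s1, and the receptors Itgb2 and Scarf1. C1s1 and Scarf1 reached 10 CPM in the combination only, so they passed the filter through the library where they were high. Scarf1 stood at 6.96, 9.18, 6.72 and 13.7 CPM. C1ra and C1s1 encode mouse C1r and C1s, the proteases that join C1q to form C1. C1ra stood at 21.4, 29.2, 16.7 and 53.7 CPM, a ratio of 2.51 (2.38 to 2.65), and C1s1 at 1.03, 2.003, 0.713 and 11.3 CPM, a ratio of 10.9 (8.69 to 13.8). Itgb2, the common chain of complement receptors 3 and 4, stood at 1149, 1141, 1298 and 1825 CPM, a ratio of 1.59 (1.58 to 1.601), while its partners Itgam and Itgax had ratios of 0.8798 (0.873 to 0.887) and 1.02 (0.995 to 1.04).

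Among the genes called lower was C5ar2, the second C5a receptor, at 50.9, 46.5, 45.9 and 25.8 CPM and a ratio of 0.506 (0.481 to 0.532). C4b, the only one of C4 and C2 at 10 CPM, was highest in single antibody A, at 67.8, 118, 42.1 and 77.9 CPM. Fcna, a ficolin of the lectin pathway, stood at 21.5, 30.1, 35.5 and 17.1 CPM and was lowest in the combination. None of the 7 terminal pathway genes reached 10 CPM, and C5 itself (Hc) was at 0 to 0.0252 CPM. The receptor Vsig4 was at 0.0932 to 1.94 CPM.

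The same list gave 5 higher and 1 lower of 20 genes in monocytes, beside 5.84% and 4.89% of all genes, and 7 higher and 3 lower of 21 in dendritic cells, beside 7.03% and 13.1%. In neutrophils it gave 4 higher and 2 lower of 18, beside 17.6% and 24.6%. In the stromal or tumor class it gave 7 higher and 2 lower of 16, beside 3.5% and 7.31%. The 7 were the C1q chains, C3, Cfb, C1ra and C1s1, of which C1ra and Cfb were below 10 CPM in isotype control. Of the 7, the C1q chains, C3 and Cfb lay below the T cell level in CPM in both libraries. C3 stood at 15.4 CPM in isotype control and 48.9 in the combination, against 37.5 and 148 in T cells. The median depth was 50342 and 86219 UMIs per cell in the stromal or tumor class, against 3878 and 5112 in T cells. The same free RNA per cell gives a lower CPM in deeper cells, so this comparison cannot place the class against background. C1ra was called higher in the stromal or tumor class as well as in macrophages, monocytes and dendritic cells. In monocytes C1ra stood at 13.5, 13.7, 13.3 and 41.0 CPM, a ratio of 3.03 (2.45 to 3.78). In dendritic cells the ratio was 5.89 (2.89 to 13.2), from 4.19 CPM in isotype control to 24.7 in the combination, where alone it reached 10 CPM. C4b was called higher in monocytes only, at 17.9, 20.3, 15.6 and 39.1 CPM and a ratio of 2.19 (1.795 to 2.67). Clusterin (Clu), which restrains the terminal pathway, was called lower in dendritic cells, at a ratio of 0.225 (0.0858 to 0.501). Its level there was low and uneven, at 19.7, 0, 24.1 and 4.43 CPM, with no UMI in single antibody A. Clu was also called lower in the stromal or tumor class. C1qbp, a binding protein of the C1q head, was called lower in dendritic cells, at a ratio of 0.657 (0.482 to 0.887). In neutrophils Cd93 had a ratio of 1.77 (1.22 to 2.63), and the interval of Cd46, called lower, reached past 1. In the stromal or tumor class C1ra and C1s1 stood at 8.34, 17.6, 10.04 and 16.8 and 10.4, 34.7, 15.5 and 32.3 CPM and Clu and Lrp1 at 63.6, 24.1, 12.7 and 25.1 and 167, 175, 148 and 100.0. Calr, encoding calreticulin, stood there at 406, 442, 443 and 452 CPM, and Lrp1 stood at 1247, 1102, 1450.3 and 1021 CPM in macrophages.

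**Figure D5:**
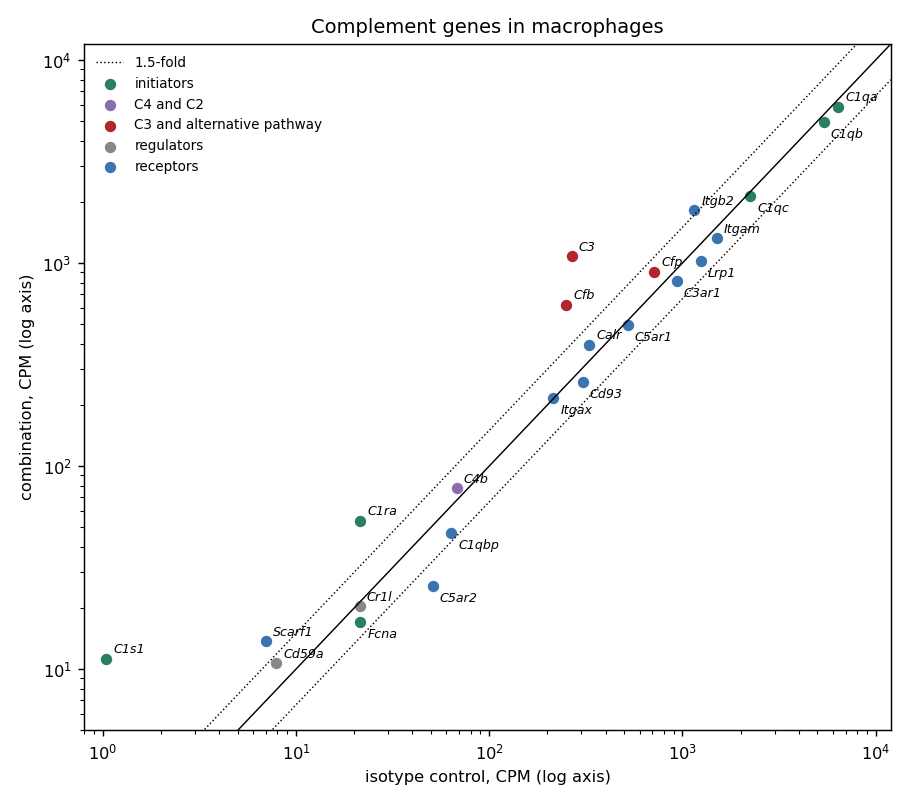
Macrophage level in isotype control (horizontal) and in the combination (vertical), both in CPM on log axes, of the complement genes that reached 10 CPM in either library, apart from 1 not reported here, coloured by role; dotted lines mark 1.5-fold. C3, Cfb, C1ra, C1s1, Itgb2 and Scarf1 lie above the upper line and C5ar2 below the lower one.

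The genes whose level over the 44 pairs of macrophage cluster and library was most like that of a member were taken from 6223 genes by Pearson's r. Those most like C1q were Prune2 (r = 0.96), Cd81 (r = 0.95), Hpgds (r = 0.93), Tgfbr2 (r = 0.93) and Adgre1 (r = 0.93), the last of which encodes the macrophage marker F4/80. Those most like C3 were Cnn3 (r = 0.96), Inpp5j (r = 0.96), Upp1 (r = 0.93), Tnfaip2 (r = 0.92) and Csf2rb2 (r = 0.92). Those most like Cfb were Tapbp (r = 0.96), Samhd1 (r = 0.94), Il15ra (r = 0.93), Gbp4 (r = 0.93) and Coa5 (r = 0.93). All 4 libraries share these clusters, and the values are a description without a test.

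The mixed cells, nearly all of which carried lymphocyte genes beside macrophage genes, held C1q at 12509, 12211, 12913 and 11485 CPM, C3 at 204, 252, 140.2 and 790.3 CPM and Cfb at 203, 289, 175 and 455 CPM. Their C3 ratio for the combination over isotype control was 3.88 (95% interval 3.80 to 3.96), on the same side as in macrophages.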

How the data were processed

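Live CD45+ cells of 4 pooled-tumor samples were fixed and profiled with the 10x Genomics Flex assay, in which probe pairs hybridize to transcripts. The deposited matrices hold raw counts, UMIs per gene and cell, which the authors made with Cell Ranger (version 7.0.0 and build mm10 per the labels, 7.2.0 per the file headers) and did not normalize. A gene's count depends on its probes, so levels were compared between cells and libraries, not between genes. The record and the article differ in the number of pooled tumors, the day, the tumor volume and the doses, and the record was followed.

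Cells with fewer than 500 genes or more than 10% mitochondrial UMIs were left out, as were the 5% of each library with the highest doublet score (scanpy 1.11.5, Scrublet; in each library the share was set, not called). Seurat 5.3.0 with SCTransform, anchor integration, 3000 features without the members, 30 principal components and a resolution of 0.8 gave 27 clusters. Each was named from the marker list with the highest mean score if its markers were found in at least 20% of cells on average. Where that list was the macrophage or the monocyte list, the score did not decide between them. The name then went to the list of the pair whose markers were found in more cells on average. Clusters with lymphocyte markers in at least 20% and macrophage markers in at least 50% of cells were called mixed (2757 cells), and 1114 single cells were added by a rule chosen after the data were seen. It took macrophage, monocyte and dendritic cells with at least 500 CPM of lymphocyte markers. From all other named classes, T cells included, it took cells with at least 1000 CPM of macrophage markers. Monocytes and dendritic cells were not filtered on macrophage markers. The rest of the naming thresholds were also set with the clusters in view.

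UMIs were summed per class and library and divided by the class total (CPM). With 1 library per group no test between treatments was run. Levels carry exact Poisson, ratios exact conditional binomial and shares exact Clopper-Pearson 95% intervals, which cover counting error only. Shares were the mean of 20 draws of cells to 2000 UMIs, a depth to which cells with fewer UMIs cannot be drawn. Genes were called at 1.5-fold with at least 10 CPM in either library. The call rule was tested on simulated data. Genes named were the 8 members, the complement genes called in a class or, where values are given, among the 3 with most UMIs there, and the 5 genes most like C1q, C3 and Cfb. C4b, Fcna, Hc, Vsig4 and Itgax in macrophages were named after their values were seen. The members and lists were chosen with earlier results of these data known. Alternatives covered a gate on Csf1r, Adgre1, Flt3 and S100a8, integration, resolution, features, doublets, filters, scaling, mixed clusters and thresholds. One gene of the list, C4a, was not used here. The values of 1 further gene of the list, which the counts include, are not reported here. Figures were drawn with matplotlib 3.10.9.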

Additional observations from a re-analysis of the deposited data

Results flagged for a closer look

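The ratio of combination to isotype control level lay on opposite sides of 1 in macrophages and in other myeloid classes for C1q and both receptors. For C1q it was 0.927 in macrophages, 1.34 in monocytes and 1.57 in dendritic cells. For C3ar1 it was 0.872 in macrophages, 1.497 in monocytes, 1.36 in dendritic cells and 2.19 in neutrophils. For C5ar1 it was 0.949 in macrophages, 1.36 in monocytes, 1.99 in dendritic cells and 1.24 in neutrophils. With 1 library per group the difference between classes was not tested. The C1q ratios in monocytes and dendritic cells fell below 1 without integration and with the gate on single cells, and those of the receptors in both classes did without integration. With size factors C1q and C5ar1 in macrophages stood at 1.004 and 1.03, and the opposite sides were lost. In neutrophils C1q stood at 0.925, with an interval that held 1, C3ar1 at 0.721 where no cell was set apart as mixed and C5ar1 at 0.991 with the gate. Neutrophil C3ar1, at 29.3 and 64.1 CPM in isotype control and the combination, lay below the T cell level of 44.5 and 79.6 CPM.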

How the results depend on the processing

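Values are ratios of combination to isotype control levels unless stated. In macrophages C3 stayed at 3.47 to 4.37 and Cfb at 2.36 to 2.702 over 12 alternatives, and C1q ran from 0.872 to 1.004. The class drawn by a gate on single cells gave 0.985 for C1q and 3.47 for C3. Clustering without integration gave 3.72 for C3 and 2.41 for Cfb. A resolution of 0.4 gave 0.919, 3.59 and 2.36 for C1q, C3 and Cfb. Keeping doublets gave 0.935 for C1q and 2.45 for Cfb, and counting mixed clusters as macrophages 0.932 and 2.44. Means over cells gave 0.872 for C1q and 3.895 for C3. Size factors gave 1.004 for C1q, which turned its direction, with 1.04 for C1qc and 1.03 for C5ar1 turned as well, and 4.37 for C3 and 2.702 for Cfb. They raised all ratios by 0.11 on the log2 scale. Without the Nos2-led cluster, a choice made after seeing the data, C1q stood at 0.963, Cfb at 2.39 and C1qc, turned, at 1.0006. The gate also turned C1qc in macrophages, to 1.02, and C5ar1 in neutrophils, to 0.991.

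Outside macrophages the direction of C1q and the receptors depended on how classes were drawn. With the gate, C1q in monocytes stood at 0.6996 (0.657 for C1qa, 0.726 for C1qb and 0.744 for C1qc) and in dendritic cells at 0.961 (0.9596 for C1qa, 0.962 for C1qb and 0.962 for C1qc). Without integration C1q stood at 0.575 in monocytes (0.568 for C1qa, 0.607 for C1qb and 0.521 for C1qc), with C3ar1 at 0.778 and C5ar1 at 0.884. In dendritic cells it stood at 0.531 (0.525 for C1qa, 0.517 for C1qb and 0.588 for C1qc), with C3ar1 at 0.387 and C5ar1 at 0.874. With no cells set apart one by one, also chosen after seeing the data, C3ar1 in neutrophils stood at 0.721. The cause was not tested for any of these.

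Of the wider complement list 4 to 6 genes were called higher and 0 to 2 lower over 14 alternatives. At 2-fold 4 were called higher and 0 lower, beside 1.95% and 0.705% of all genes, and at a minimum of 50 CPM 4 and 2, beside 4.54% and 2.81%. Without drawing down, the share of macrophages with a UMI was 95.3% in isotype control and 94.3% in the combination for C1q, 60.98% and 90.1% for C3 and 62.8% and 85.9% for Cfb. Of the other values recomputed, 45 of the results above and 201 of single genes stayed within the counting interval of the reported value (counts of genes within 1.5 times), and 115 of single genes left it without turning. No paired analysis was possible because each group is 1 library, and no replicate could be left out. The intervals cover counting error only, so no difference between libraries can be told apart from differences between pools of tumors. Dendritic cells, neutrophils and stromal or tumor cells rest on few cells, and free RNA limits what low levels outside macrophages show.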
